A study of Mus musculus with 44 samples.

Results

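Mrc1-high and Mrc1-low cells were compared within a single plate of mouse bone macrophages. The 20 cells cultured with megakaryocytes were ranked by their deposited Mrc1 value, and the 8 cells at the top of the ranking (Mrc1-high cells) were set against the 6 at the bottom (Mrc1-low cells). These 14 cells come from 44 in all, of which the other 24 were labelled as cultured without megakaryocytes and came from another plate. All 20 ranked cells were from plate 7 and shared strain, treatment and time: neonatal calvarial cells of C57BL/6J mice, kept for 16 h with 50000 megakaryocytes, then sorted as CD45+ F4/80+ CD41- osteomacs, the macrophages that lie on bone surfaces. Single cells were captured on a microfluidic chip and their full-length cDNA was sequenced. Neither cultures nor animals are told apart in the labels, and the 20 cells therefore count as 1 sample. Every value below describes these cells, and no test between the sets was made. The cells come from a short culture of dispersed cells and not directly from bone.

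Mrc1 encodes the mannose receptor CD206, a C-type lectin of the macrophage surface that binds sugars on glycoproteins and microbes and takes them up by endocytosis. It is widely used as a marker of tissue-resident macrophages and of macrophages activated by interleukin-4. Macrophage genes of this kind are commonly under the control of PU.1, an ETS factor needed for the lineage, and of the large MAF factors, which are high in resident macrophages. Osteomacs support osteoblasts, and with megakaryocytes they form part of the niche of haematopoietic stem cells.

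The promoter sequences of Mrc1 and of 2 genes that separated the sets fully are shown because Mrc1 defined the ranking and because each of the others was higher in every Mrc1-high cell than in any Mrc1-low cell. They come from RefSeq (GRCm38.p6, the assembly of mm10) and cover the 250 bases before the start that RefSeq gives, all on the plus strand. The Mrc1 window is chr2:14229164-14229413, the Pf4 window is chr5:90772185-90772434 and the Tmem106a window is chr11:101581992-101582241. Capitals mark matches to AGGAAGT, the core bound by PU.1, searched on both strands with TGCTGAC, a half-site bound by MAF factors, as the second motif.
Mrc1 promoter: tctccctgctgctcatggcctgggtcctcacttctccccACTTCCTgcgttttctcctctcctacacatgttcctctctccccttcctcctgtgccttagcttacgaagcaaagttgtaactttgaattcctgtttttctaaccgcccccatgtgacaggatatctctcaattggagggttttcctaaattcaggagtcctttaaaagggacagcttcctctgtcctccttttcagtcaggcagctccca
Pf4 promoter: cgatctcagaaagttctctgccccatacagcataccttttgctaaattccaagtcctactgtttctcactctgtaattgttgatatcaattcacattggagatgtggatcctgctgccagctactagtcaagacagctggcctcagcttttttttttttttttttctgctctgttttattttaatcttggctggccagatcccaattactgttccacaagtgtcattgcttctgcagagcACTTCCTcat
Tmem106a promoter: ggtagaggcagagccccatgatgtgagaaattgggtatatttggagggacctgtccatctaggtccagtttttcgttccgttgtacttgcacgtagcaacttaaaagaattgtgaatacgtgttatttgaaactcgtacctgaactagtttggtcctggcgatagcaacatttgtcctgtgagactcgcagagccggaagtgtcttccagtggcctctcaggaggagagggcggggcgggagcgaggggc
Mrc1 and Pf4 each held 1 match to AGGAAGT, in both on the other strand, and no match to TGCTGAC. Neither motif was found in the windows of Tmem106a and Blvra. AGGAAGT was present in 7.8% of 27025 promoter windows of this length and in 8.28% of the 2814 windows of listed genes, and TGCTGAC in 3.72% and 3.09%. Ccl7 was not matched to an entry. A match is a run of letters and not a measured binding site.

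Mrc1 was high in the 8 top cells and close to absent in the 6 bottom ones. This protein-coding gene spans 14229392 to 14332057 of chromosome 2 (mm10, plus strand, GENCODE M21). Levels are in CPM, the reads of a gene scaled to library reads and worked out from the deposited values. They allow cells to be compared for a given gene, but not different genes. The Mrc1-high cells had 1192 to 4666 CPM of Mrc1, with a median of 2022, or 936 to 3796 reads. Among the Mrc1-low cells, cell 1 had 2 reads (2.28 CPM), cell 12 had 1 read (1.29 CPM), and cells 19, 9, 2 and 6 had none. A count of 0 allows up to 3 reads, which is 2.72 to 4.24 CPM in those 4 cells. These values chose the sets and are given as a description. Just inside the upper limit lay cell 10 at 1192 CPM, and just outside it cell 11 at 940 CPM, a shallow cell with 65 Mrc1 reads of 69181. Just outside the lower limit lay cell 14 at 13.7 CPM, from 11 reads. In the cells without megakaryocytes, 4 of 24 had a read of Mrc1, against 16 of the 20 here, and the highest of them reached 75.1 CPM. Those 24 cells came from another plate, so megakaryocytes, plate and the kind of cell captured cannot be told apart in this contrast.

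**Figure D1:**
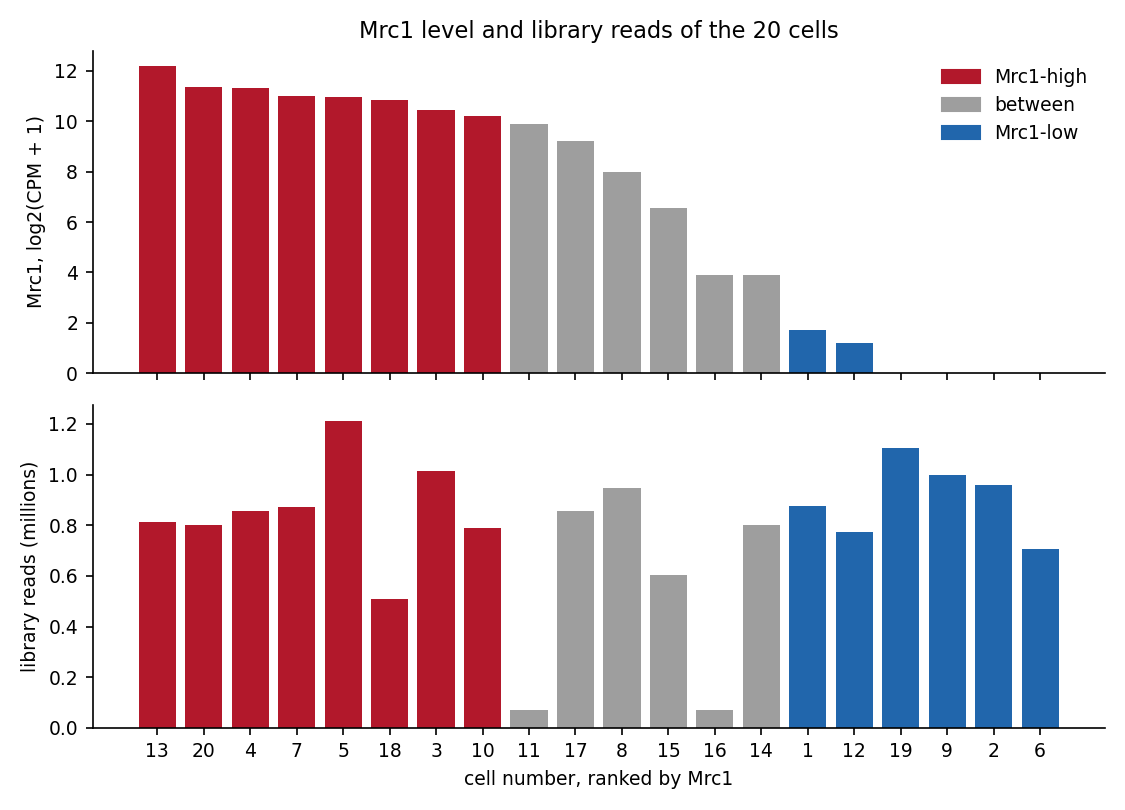
The upper panel plots Mrc1 as log2(CPM + 1) for each of the 20 cells in rank order, and the lower panel plots their library reads. The 8 Mrc1-high cells (red) and 6 Mrc1-low cells (blue) had similar depth, and the 2 cells under 100000 reads lie between the sets (grey).

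Depth did not separate the sets. Library reads ran from 508854 to 1212604 in Mrc1-high cells (median 834920) and from 707594 to 1103554 in Mrc1-low cells (median 917508). Genes with a read numbered 1694 to 2533 and 1528 to 2349, with medians of 2240.5 and 2054. After each cell was thinned to 310000 reads the medians were 2027.5 and 1834.5. The 3613 genes analysed held 76.1 to 82.4% of the reads of a Mrc1-high cell, but under 76.1% in 5 of the 6 Mrc1-low cells. The exception, cell 6, had 84.8%. Cell 6 and cell 19 also stood apart in identity genes. Cell 6 carried 20287 CPM of Cd74 and 19638 CPM of H2-Aa, both genes of MHC class II presentation, and 2.83 CPM of Ptprc, the gene of CD45. Cell 19 had no read of Adgre1, which encodes F4/80, none of Itgam, and 0.906 CPM of the lysozyme gene Lyz2. Both cells are Mrc1-low, so values without them are given below for many of the genes and lists that they change. Mrc1-high cell 7 likewise had no read of Adgre1 and 2.29 CPM of Ptprc, with 4493 CPM of Lyz2. Values without it are given for some of the genes whose printed fold it moves by over 1.5 times. By the well numbers in the column names, the Mrc1-high and Mrc1-low cells came from well columns 1 to 5, and cells 14, 15, 16 and 17, which lie between the sets, from well column 6.

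The sets differed in many genes, in both directions, and few genes separated them fully. A gene was called when its mean log2(CPM + 1) differed by at least 2 and its summed level (all reads of a set over all library reads of the set) differed by at least 2-fold in the same direction. Of 2718 genes read in at least 5 of the 14 cells, Mrc1 left out, 270 (9.93%) were called higher in Mrc1-high cells and 208 (7.65%) lower. The median difference over all 2718 genes was 0.08. In 5 genes (0.184%) every Mrc1-high cell lay above every Mrc1-low cell: Ccl7, Tmem106a, Pf4, Nisch and Blvra. In 0 genes (0%) did every Mrc1-low cell lie above every Mrc1-high cell. Of the genes called higher, 63 had a read in each of the 8 Mrc1-high cells and 13 had no read in any Mrc1-low cell. Of those called lower, 82 had a read in each of the 6 Mrc1-low cells and 0 lacked a read in all Mrc1-high cells. The filter tilts these counts, since a gene needed a read in 5 of the 14 cells and the sets hold 8 and 6. The 13 genes passed it through Mrc1-high cells alone, so the directions cannot be compared on these counts. Without cells 6 and 19, 286 genes were called higher, of which 189 were among the 270, and 287 lower, of which 156 were among the 208. The fully separated genes then numbered 9, with all 5 above among them, and 9 in the other direction. Leaving out cell 20 or cell 19 alone gave 8 fully separated genes, and leaving out cell 2 gave 9. In the other direction 3 genes appeared without cell 9 or cell 2, 2 without cell 20, 18 or 19, and 1 without cell 13, 4, 7, 1 or 6.

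**Figure D2:**
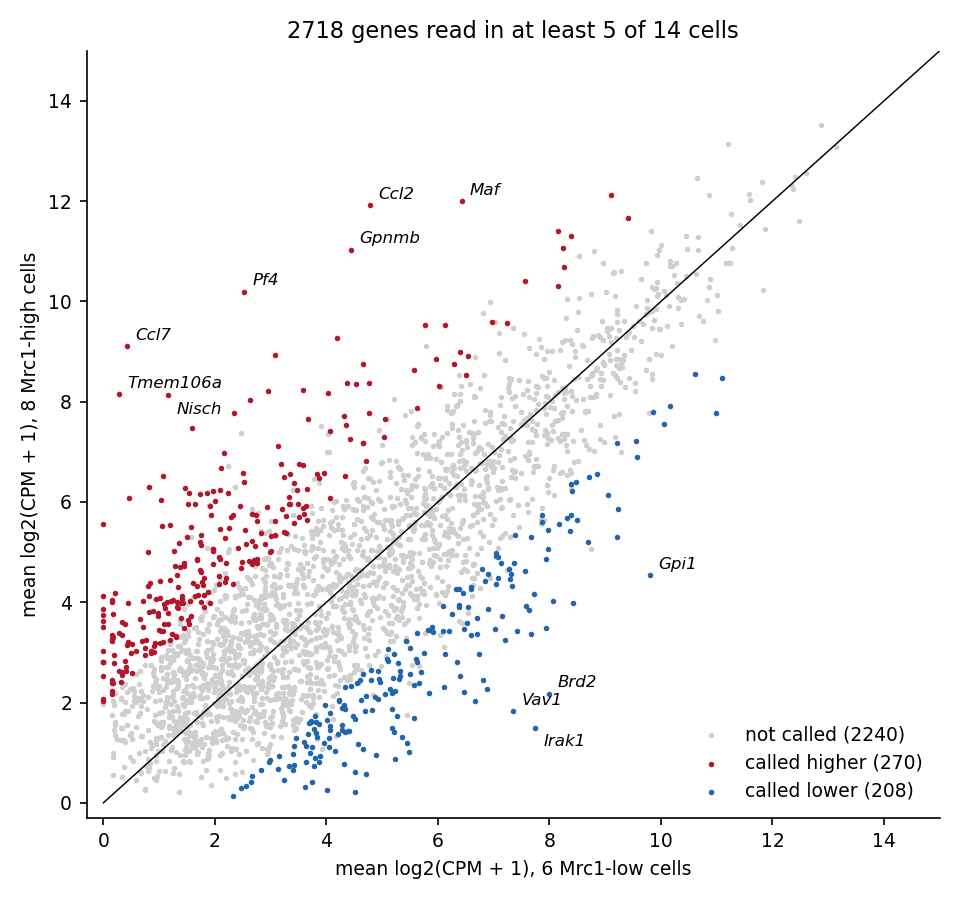
Each point is 1 of 2718 genes, placed by its mean log2(CPM + 1) over the 6 Mrc1-low cells (horizontal) and the 8 Mrc1-high cells (vertical). Red points are the 270 genes called higher, blue points the 208 called lower, and the line marks equal means; Ccl7, Tmem106a, Pf4 and Ccl2 lie farthest above the line.

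The largest difference was in Ccl7, and its neighbour Ccl2 was also among the leading genes. Both encode chemokines that draw monocytes through the receptor CCR2. They lie on chromosome 11, Ccl2 at 82035571 to 82037453 and Ccl7 at 82045712 to 82047525, on the plus strand with 8258 bases between them. Ccl7 had 17.7 to 9022 CPM in Mrc1-high cells (median 934) and 0 to 1.81 in Mrc1-low cells, where cell 19 had 2 of the set's 3 reads. Mean log2(CPM + 1) was 9.11 ± 2.91 (SD, n = 8 cells) and 0.43 ± 0.68 (n = 6), a difference of 8.68. With each cell left out in turn the difference stayed between 8.11 and 9.38. Cell 13 alone gave 62.8% of the Ccl7 reads of the Mrc1-high set. The summed level was 3073-fold higher (95% counting interval 1051 to 14902), 1296-fold without cell 13 and 7342-fold without cell 19. Ccl2 had 1174 to 14994 CPM in Mrc1-high cells and was split among Mrc1-low cells. Cells 1, 12, 19 and 9 had 1.14, 1.29, 0.906 and 5.00 CPM of Ccl2, while cells 2 and 6 had 1699 and 4665. The Ccl2 sets therefore overlapped, although the difference of means was 7.14. Its summed level was 5.93-fold higher, and 15.6-fold without cell 6. Over the 20 cells Ccl7 and Ccl2 had a Spearman correlation of 0.62, given as a description of cells that share a plate.

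Pf4, the chemokine CXCL4 known from platelet granules and also made by some tissue macrophages, was another gene that separated the sets. Within the Mrc1-high set Pf4 did not follow the Mrc1 rank, with 3586 CPM in cell 10, the lowest of that set in Mrc1. The gene spans 90772435 to 90773383 of chromosome 5. Its levels ran from 159 to 8749 CPM in Mrc1-high cells, with a median of 1682. The Mrc1-low cells 12, 19 and 2 had 134.4, 64.3 and 3.13 CPM, and cells 1, 9 and 6 had no read. The 3 lowest Mrc1-high cells, 18, 3 and 4, had 159, 175 and 190 CPM, so the gap to cell 12 was small. Means on the log2 scale were 10.20 ± 2.43 (n = 8) and 2.53 ± 3.24 (n = 6), and the difference of 7.67 stayed between 7.17 and 8.58 with each cell left out. The summed level was 90.6-fold higher (78.1 to 106), and 187-fold without cell 12. Because the cultures contained megakaryocytes, the other genes of the megakaryocyte and platelet list bear on this value. Of its 24 members 5 were analysed, and Itga2b, the gene of CD41, was not analysed here. Besides Pf4 these were Thbs1, F13a1, Rap1b and Plek, with differences of −0.45, −0.05, −0.25 and 1.03, none of them called. Thbs1 was called lower when cells 6 and 19 were left out (difference −2.44, 7.69-fold), and 2 list members were then called lower, with a list median of −0.79. The summed level of the list ran from 710 to 10115 CPM in Mrc1-high cells and from 1341 to 4943 in Mrc1-low cells, Pf4 included. The part of megakaryocyte RNA in the Pf4 values was not tested.

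Tmem106a, Nisch and Blvra were the other genes without overlap. Tmem106a encodes a transmembrane protein found in macrophages, from 101582242 to 101591788 of chromosome 11. Its level was 11.5 to 1616 CPM in Mrc1-high cells (median 280), while cell 1 with 2 reads (2.28 CPM) was the only Mrc1-low cell with any. The difference of mean log2(CPM + 1) was 7.86, and 7.51 to 8.51 with each cell left out. Blvra encodes biliverdin reductase, which turns the haem product biliverdin into bilirubin, from 127070665 to 127097084 of chromosome 2. Its level was 12.6 to 531 CPM in Mrc1-high cells and 0 to 7.31 in Mrc1-low cells, a difference of 5.43. The closest pair of cells was cell 7 at 12.6 CPM and cell 2 at 7.31. Haem oxygenase, encoded by Hmox1, acts just before Blvra in the same pathway and was not called, with a difference of 2.68 and a summed level 1.22-fold higher. Mrc1-low cell 19 had 1550 CPM of Hmox1, and without it the summed level was 4.11-fold higher. Mrc1-high cell 7 had 2216 CPM and 56.1% of the Hmox1 reads of its set, and the fold without it is not given. Hmox1 was called higher without cells 6 and 19, with a difference of 3.76.

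Nisch encodes nischarin, a cytosolic protein that binds integrins, on the minus strand of chromosome 14 from 31170930 to 31216946. Nisch had 70.9 to 1293 CPM in Mrc1-high cells and 0 to 54.3 in Mrc1-low cells. Cell 2 held 98.1% of the Mrc1-low reads of Nisch, so the summed level was 41.5-fold higher with it and 1812-fold higher without it. The difference of means was 6.97. Its neighbour Stab1, the gene of the scavenger receptor stabilin-1, ends 2288 bases away on the same strand, at 31139013 to 31168641. Stab1 was called higher as well, with a difference of 3.80, but it had no read in Mrc1-high cells 4 and 5 and had 233 CPM in cell 2. Its summed level was 9.23-fold higher, 3.06-fold without cell 7 and 250-fold without cell 2. Nisch and Stab1 had a Spearman correlation of 0.40 over the 20 cells.

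**Figure D3:**
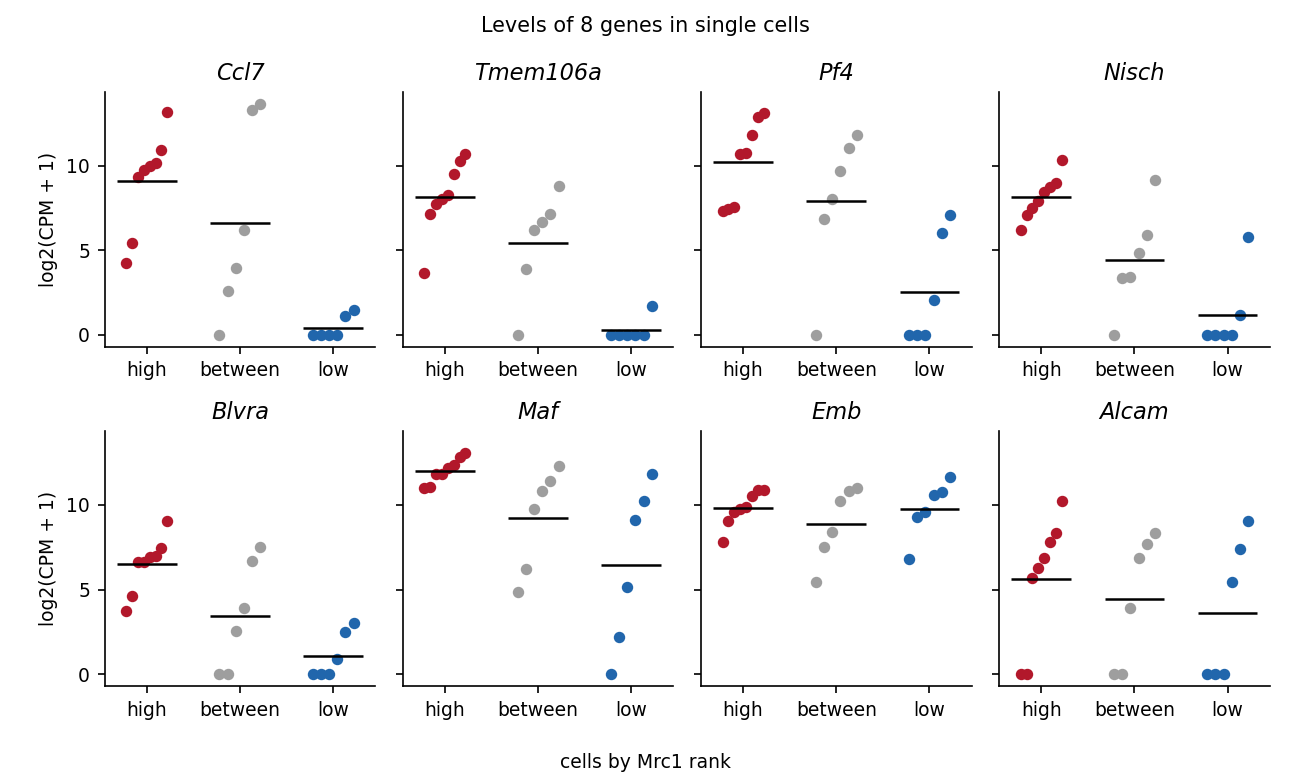
Each point is a cell, placed by log2(CPM + 1) of the named gene and grouped by Mrc1 rank into Mrc1-high (8 cells), between (6) and Mrc1-low (6); horizontal lines are means. The high and low sets do not overlap for Ccl7, Tmem106a, Pf4, Nisch and Blvra, and overlap for Maf, Emb and Alcam.

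Cd36, Gpnmb and Cd300a, which encode surface proteins, were among the leading 15 genes. Cd36, a scavenger receptor for oxidised lipoproteins and fatty acids, had 2.50 to 5776 CPM in Mrc1-high cells (median 1541) and 0 to 211 in Mrc1-low cells. It was low in Mrc1-high cells 20 and 18, at 2.50 and 11.8 CPM, so the sets overlapped. The difference was 5.86 and the summed level 28.6-fold higher, or 54.0-fold without cell 19. Cells 6 and 19 held 211 and 190 CPM, and without both the difference was 8.15, no Mrc1-low cell had more than 3.13 CPM and the summed level was 1727-fold higher. Gpnmb, a transmembrane glycoprotein of macrophages and osteoclasts, had 154 to 12092 CPM in Mrc1-high cells. In 5 Mrc1-low cells it lay between 0.906 and 119 CPM, but cell 2 had 7129. The Gpnmb difference was 6.59, and the summed level was 3.13-fold higher with cell 2 and 192-fold without it. Cd300a, an inhibitory receptor that binds lipids exposed on dying cells, had 103 to 633 CPM in 7 Mrc1-high cells and no read in cell 18. Among Mrc1-low cells it had 313 CPM in cell 2, 1.29 in cell 12 and none elsewhere. Its difference was 5.89, and the summed level was 6.95-fold higher, or 1722-fold without cell 2.

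Of the transcription factors, Maf was high in every Mrc1-high cell. It encodes c-MAF, a large MAF factor of resident macrophages. Maf levels were 2033 to 8492 CPM in Mrc1-high cells and 0, 3.62, 35.3, 549, 1207 and 3594 CPM in Mrc1-low cells 12, 19, 1, 9, 2 and 6. The mean was 12.00 ± 0.74 (n = 8) against 6.42 ± 4.72 (n = 6), so the Mrc1-high cells were far more alike than the Mrc1-low cells. The difference of 5.58 stayed between 4.29 and 6.66 with each cell left out, and the summed level was 5.54-fold higher, or 11.9-fold without cell 6. Id3, which blocks other factors from binding DNA, had 7.88 to 760 CPM in 6 Mrc1-high cells, no read in cells 7 and 10, and no read in any Mrc1-low cell. Its summed level was at least 380-fold higher, taking 3 reads over the Mrc1-low set as the limit, or at least 238-fold without cell 4. Igf1, a growth factor that macrophages secrete, reached 69.6 to 2708 CPM in 5 Mrc1-high cells and stayed at 0 to 3.93 in cells 20, 7 and 18. No Mrc1-low cell had more than 2.09 CPM of Igf1, and the difference of means was 5.48. The summed level of Igf1 was 890-fold higher, or 535-fold without cell 3. Of 20 tested macrophage transcription factors, Cebpa, Maf, Runx1, Id2, Id3 and Mef2c were called higher and Klf13 lower; the Mef2c call was lost without cell 5. Spi1, the gene of PU.1, was not called, at 0.94.

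Myo5a, Kif2a and Lgals3bp completed the leading 15. Myo5a, a motor that carries vesicles along actin, had 11.8 to 1598 CPM in Mrc1-high cells and 0 to 43.9 in Mrc1-low cells, with a difference of 5.43. Kif2a, a kinesin that takes microtubules apart, differed by 5.62 and had 3 reads over the Mrc1-low set, but no read in Mrc1-high cell 3. Kif2a shares 1229 exon bases with Dimt1 on the other strand, and the counting is not stated to use strand, so its reads are uncertain. Lgals3bp, a secreted galectin-3 binding protein, differed by 5.41. Mrc1-low cell 1 held 91.6% of the Lgals3bp reads of its set, and the summed level was 8.38-fold higher with it and 83.8-fold without it.

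**Figure D4:**
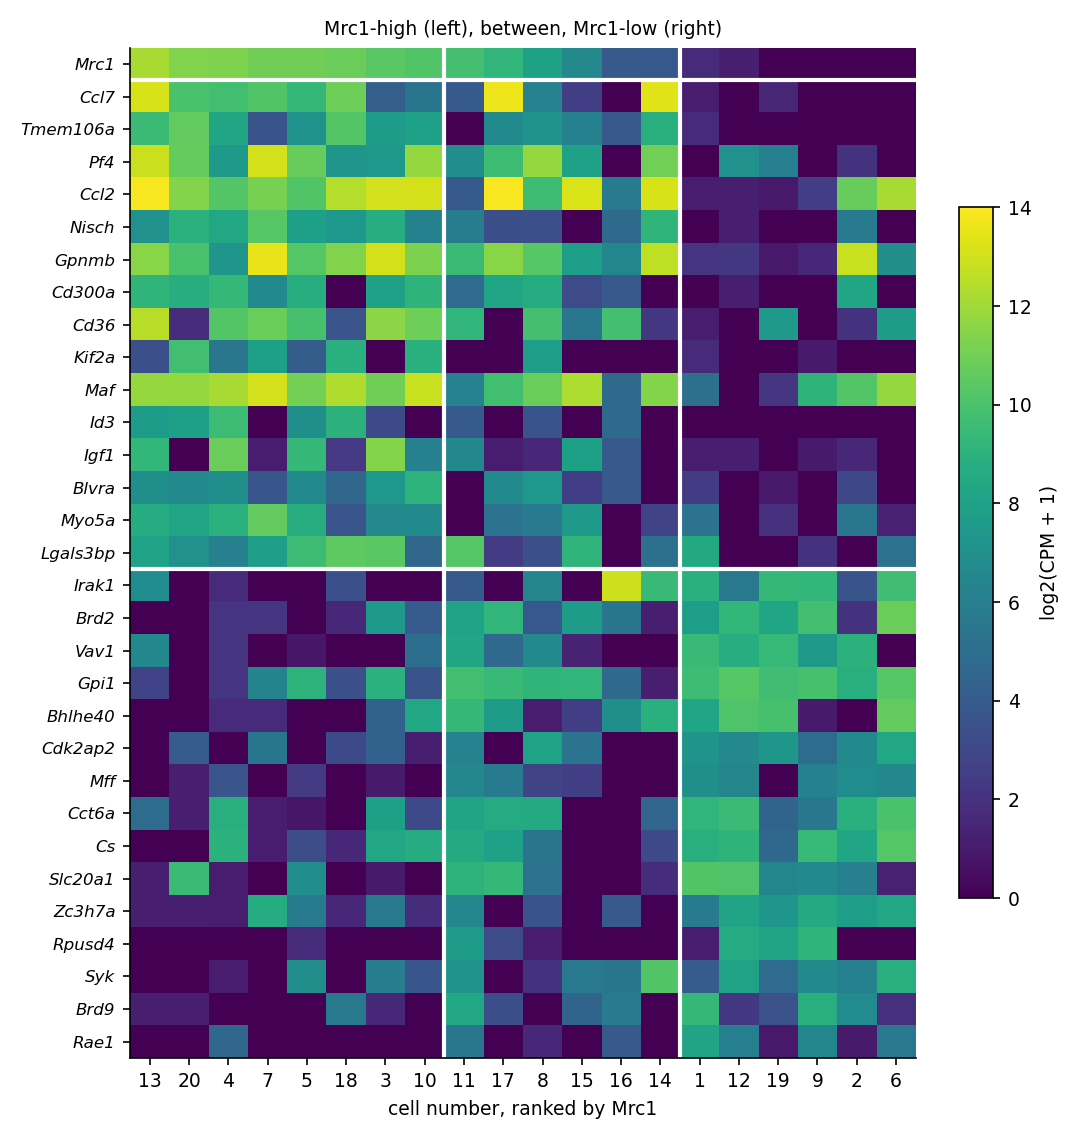
Rows are Mrc1, the 15 genes with the highest and the 15 with the lowest difference among those called; columns are the 20 cells in Mrc1 order, and colour is log2(CPM + 1). White lines bound the Mrc1-high cells, the cells between and the Mrc1-low cells. Cell 2 carries Gpnmb, Cd300a and Nisch without Mrc1, and cells 17 and 14 between the sets carry Ccl7 and Ccl2 at levels like those of cell 13.

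Irak1, Brd2 and Vav1 had the largest differences among the genes called lower in Mrc1-high cells. Irak1, a kinase that relays interleukin-1 and Toll-like receptor signals, had 11.5 to 838 CPM in Mrc1-low cells (median 544). In Mrc1-high cells it was read in 3 of 8, at 2.34, 9.83 and 111 CPM in cells 4, 18 and 13. The difference was −6.25, and −7.07 to −5.86 with each cell left out. Its summed level was 31.1-fold lower in Mrc1-high cells, and 380-fold lower without cell 13. Brd2, a chromatin reader of the BET family, had 219 to 1858 CPM in 5 Mrc1-low cells and 3.13 in cell 2, against 0 to 181 in Mrc1-high cells. The Brd2 difference was −5.82, and the summed level was 19.9-fold lower, or 182-fold without cell 3. Vav1, a signalling protein of blood cells, had 191 to 703 CPM in 5 Mrc1-low cells and no read in cell 6, against 0 to 91.0 CPM in Mrc1-high cells. The Vav1 difference was −5.52. Mrc1-low cells 12 and 2 for Irak1, cell 2 for Brd2 and cell 6 for Vav1 lay within the range of the Mrc1-high cells, so none of these genes separated the sets.

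Gpi1, the glycolytic enzyme glucose-6-phosphate isomerase, was the most even of these genes across Mrc1-low cells. All 6 had 451 to 1337 CPM of Gpi1 (mean 9.81 ± 0.58 on the log2 scale). Mrc1-high cells 5 and 3 had 530 and 485 CPM, and the other 6 had 0 to 79.0. The difference was −5.26, and the summed level was 5.15-fold lower, or 8.91-fold without cell 5. Zc3h7a was similarly even in Mrc1-low cells, at 51.3 to 370 CPM, against a median of 2.25 CPM in Mrc1-high cells and 401 CPM in cell 7. Syk, the kinase that acts below Fc and C-type lectin receptors, had 16.0 to 461 CPM in Mrc1-low cells and a median of 0.584 in Mrc1-high cells, a difference of −4.24. Bhlhe40, a transcription factor, differed by −4.64 but had 1.00 CPM in Mrc1-low cell 9 and no read in cell 2. Also among the lowest 15 were Cdk2ap2, Mff, Cct6a, Cs, Slc20a1, Rpusd4, Brd9 and Rae1, with differences from −4.61 to −4.13. Mff acts in mitochondrial fission and Cs is citrate synthase of the tricarboxylic acid cycle. The call of Rpusd4 rests on reads in 4 Mrc1-low cells and was lost when cell 5, 1, 12, 19 or 9 was left out, since fewer cells then had a read than the 5 required.

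Gene lists were compared by how many tested members were called, beside 9.93% called higher and 7.65% called lower of all genes. Those shares hold for the full sets. Without cells 6 and 19, 286 of all genes were called higher and 287 lower, in place of 270 and 208. List counts in that setting therefore stand beside a general rise, mostly in lower calls, and no share is given for it. In the list of resident and alternatively activated macrophage genes 6 of 16 were called higher and 0 lower. These were Stab1, Pf4, Maf, Igf1, Trf and Nrp1, and the median difference was 1.92, beside 0.08 for all genes. The median was 1.59 to 2.55 with each cell left out and 2.99 without cells 6 and 19, where 9 members were called higher and 2 lower. Summed over its members, which do not include Mrc1, the list reached 10122 to 30684 CPM in Mrc1-high cells. In Mrc1-low cells it reached 2919 to 9318, with no overlap. That gap rested on Maf and Pf4, leading genes of this same split. Mrc1-high cell 5 had 10122 CPM, of which Maf gave 2137 and Pf4 1719. Mrc1-low cell 19 had 8244 CPM, with 3.62 from Maf and 64.3 from Pf4. Leaving Maf and Pf4 out of the sum, the sets overlapped. Trf, which encodes transferrin, was carried by few cells, with 2384 CPM in cell 18, 1573 in cell 7 and under 50 in the other Mrc1-high cells. Trf shares 2108 of its 3320 exon bases with Gm20425 on the same strand, so its reads are uncertain. Several classical genes of resident macrophages, among them Cd163, Lyve1, Timd4 and Folr2, were not analysed here.

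Lipid handling genes had 6 of 12 called higher and 0 lower, with a median of 1.93. Besides Cd36 these were Fabp5, a fatty acid carrier, Plin2, which coats lipid droplets, Lpl, a lipase, Nceh1, a cholesterol ester hydrolase, and Lrp1, a lipoprotein receptor. Without cells 6 and 19, 5 lipid handling genes were called higher and 0 lower, with a median of 2.11. Fabp5 had 53.7 to 2507 CPM in Mrc1-high cells and 604 CPM in Mrc1-low cell 2, with 1.41 to 77.5 in the other 5. The lectin and scavenger receptors had 4 of 12 called higher (Cd36, Stab1, Lrp1 and Cd93) and Clec5a lower, with a median of 1.84 that was 0.91 without cell 19. This list had 2 members called higher and 3 lower without cells 6 and 19, and its median was then 1.05. Clec5a, a lectin that signals through DAP12, had a summed level 6.15-fold lower in Mrc1-high cells, or 17.3-fold without cell 7 and 3.53-fold without cell 1. In the list of Fc and Tyrobp-linked receptors 6 of 12 were called higher (Fcgr1, Fcgr3, Trem2, Cd300a, Cd300lb and Cd300lf) and Syk lower, with a median of 1.76. That list depended on the 2 cells that stood apart: without cells 6 and 19 the median was 0.53, 3 members were called higher and Fcgr1 was not among them.

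Complement genes had a median of 3.02 over 5 tested, which became 1.65 without cell 19 and 1.32 without cells 6 and 19. C3ar1 and C5ar1, receptors for complement fragments, were called higher. Without cells 6 and 19 the C5ar1 call was lost, and C3ar1 alone of the list was called higher. C3ar1 had 2702 to 10919 CPM in Mrc1-high cells and 23.3 to 5068 in Mrc1-low cells, where cell 2 was highest. C1qb and C1qc, which encode chains of C1q, were not called, with summed levels 1.67-fold and 1.35-fold higher. Of 23 tested uptake genes 6 were called higher (Cd300lf, Lrp1, Wipf1, Fcgr1, Fcgr3 and Trem2) and 0 lower, with a median of 1.01. All of them but Wipf1 were also counted in lists above. Leaving out cells 6 and 19 gave 3 uptake genes called higher and 0 lower and a median of 0.58. The summed level of the uptake genes was 14611 to 19204 CPM in Mrc1-high cells and 9521 to 14563 in Mrc1-low cells, which do not overlap but nearly touch. Lysosomal genes had 4 of 32 called higher (Lamp1, Ctsl, Ctss and Lgmn) and 0 lower, near the share of all genes, and 7 higher and 1 lower without cells 6 and 19. The Ctsl call was lost without cell 13 or without cell 6. Ctsl shares 2137 of its 6489 exon bases with other genes, so its reads are uncertain too. Osteoclast genes had 2 of 6 called higher (Clcn7 and Ostm1), while Tnfrsf11a, the gene of RANK, had 99.9% of its Mrc1-low reads in cell 19 and was called when that cell was left out.

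Of the 14 tested monocyte and inflammatory genes 4 were called higher (the chemokine genes Ccl2, Ccl4, Ccl7 and Cxcl3) and S100a8 lower. Their median difference was 0.78, but the median of their log2 summed ratio was −0.46, so the sign depended on the measure. Without cells 6 and 19 the median difference was 1.03, with 4 called higher and 3 lower. The Ccl4 call was lost without cell 18, 3, 1, 12, 19 or 9, and the S100a8 call without cell 7, 18, 1, 12 or 9. Interferon-stimulated genes had 2 of 16 called higher (Irf7 and Xaf1) and Irf1 lower, with a median of 1.78. Without cells 6 and 19 their called-higher count was 7. Antigen presentation genes had 0 of 11 called higher and H2-Aa and H2-DMa lower. The H2-Aa difference of −2.19 came from cell 6 alone, and was 0.10 without it. The H2-DMa call was lost without cell 13, 20, 4, 5, 1, 12, 9 or 6.

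Lists of basic cell functions had medians from −0.51 to 0.16. Respiratory chain genes had 1 of 55 called higher and 2 lower, with a median of −0.01, and actin and motility genes 1 and 3 of 32, with a median of 0.16. Glycolysis genes had Hk3 called higher and Gpi1 lower of 11, and a median of −0.34; the Hk3 call was lost without cell 20, 18, 3, 1, 12, 19, 9 or 6. The glycolysis summed level was 1852 to 5854 CPM in Mrc1-high cells and 5193 to 8782 in Mrc1-low cells, overlapping over a narrow range. Immediate early and heat shock genes had 0 of 15 called higher and 2 lower (Hspa8 and Gadd45b), with a median of −0.51. Neither call held throughout: that of Gadd45b was lost without cell 1 or 19, and that of Hspa8 without cell 13, 7, 18, 1, 12 or 19. With cells 6 and 19 left out, the glycolysis median was −0.99, 4 immediate early and heat shock genes were called lower and so were 5 respiratory chain genes. None of 6 cell cycle genes was called. Of 4 tested haematopoietic support factors, Igf1 was called higher and Spp1, the gene of osteopontin, was not called, at −0.70. The Spp1 difference was 0.34 without cell 2, and without cells 6 and 19 it was −2.17 and called lower. Iron and haem genes had Trf and Blvra called higher of 8, cytokine receptor genes 4 higher and 1 lower of 21, and adhesion genes 4 higher and 1 lower of 12. Medians of these last 3 lists were 0.89, 0.46 and 0.96.

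**Figure D5:**
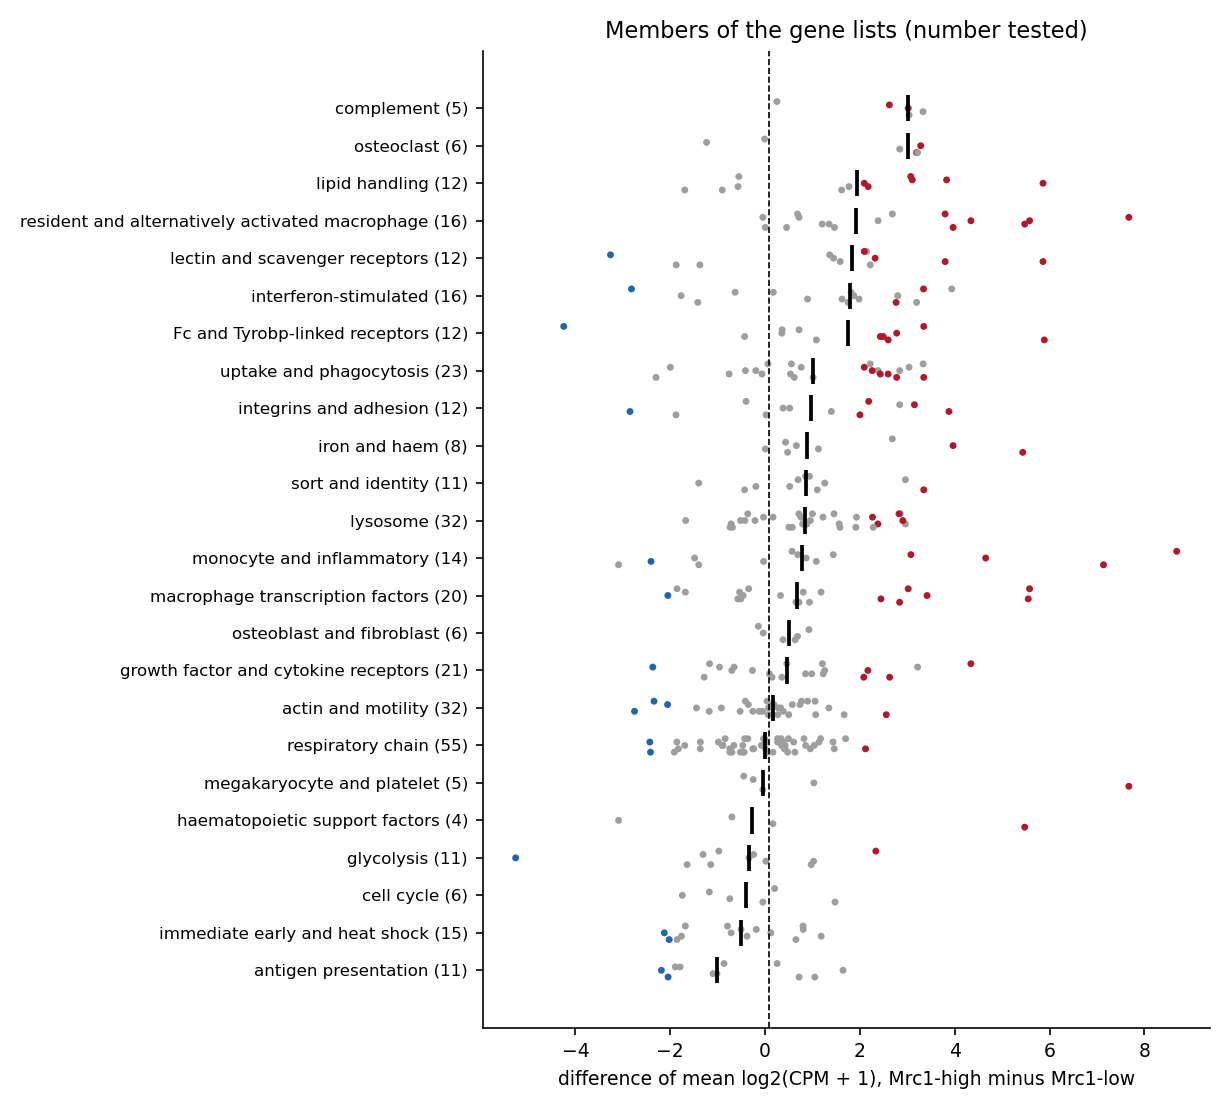
Each point is a tested member of a gene list, placed by its difference of mean log2(CPM + 1), Mrc1-high minus Mrc1-low; red points are called higher, blue lower and grey not called. Black bars are list medians and the dashed line is the median of all genes, 0.08. Lists with at least 4 tested members are shown, with the number tested in brackets.

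The 6 cells between the sets did not choose the called genes, so their levels were compared with the midpoint between the means of the sets. Of the 270 genes called higher, Mrc1-high cells were above the midpoint in 50 to 79.6% and Mrc1-low cells in 11.1 to 43%. The ranges of both sets, here and for the genes called lower, follow from how the genes were called and serve only as a scale. The share over all tested genes was not computed, so a cell's general tendency to lie above the midpoint is not known. Cells 17 and 8, with 593 and 255 CPM of Mrc1, were above it in 61.1 and 58.5%, within the range of Mrc1-high cells. Cells 15 and 14, with 94.4 and 13.7 CPM, were above it in 44.4 and 41.9%. Cells 11 and 16, the shallow ones, were at 43.3 and 24.1%. Of the 208 genes called lower, Mrc1-low cells were above the midpoint in 50 to 78.8% and Mrc1-high cells in 17.8 to 53.4%. Cells 17 and 8 were at 54.8 and 59.1%, and so within the Mrc1-low range, while cells 15 and 14 were at 38.5 and 26.9%, within the Mrc1-high range. The shallow cells 11 and 16 were at 76.0 and 29.8%. The cells between the sets thus did not line up by Mrc1 on both groups of genes. Cell 14 carried 10079 CPM of Ccl7, 9207 of Ccl2, 6374 of Gpnmb, 2083 of Pf4 and 437 of Tmem106a at 13.7 CPM of Mrc1. Among Mrc1-low cells, cell 2 held the most reads in 79 of the 270 genes called higher, and cell 1 in 62.

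The genes most like Mrc1 were ranked over all 20 cells, of which 14 are the compared cells, so this ranking is not independent of the comparison. Spearman correlation with Mrc1 was computed for 2204 genes read in at least 10 cells, with no p-value, since the cells share a plate and their depth differs. The 5 highest were Tmem106a (0.76), Nisch (0.74), Ccl7 (0.73), Myo5a (0.73) and Cd300a (0.70). The median over all genes was 0.03 and the lowest value was −0.67. Pf4 reached 0.70 with Mrc1 and 0.78 with Ccl7, and Maf 0.57 with Mrc1.

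Emb and Alcam are the genes named in the study's title; Emb was not called and Alcam was called higher by a narrow margin. Emb encodes embigin, an adhesion protein of the immunoglobulin superfamily. It had 227 to 1916 CPM in Mrc1-high cells (median 916) and 109 to 3200 in Mrc1-low cells (median 1154), a difference of 0.02, −0.58 to 0.40 with each cell left out, and −0.85 without cells 6 and 19. The Emb sets overlapped almost completely, and its Spearman correlation with Mrc1 was 0.09. Alcam encodes CD166, another adhesion protein. It was read in 6 of 8 Mrc1-high cells and 3 of 6 Mrc1-low cells, at up to 1205 CPM in cell 13 and 530 CPM in cell 6. The difference of 2.00 lay at the limit of a call and the summed level was 2.22-fold higher, but 1.01-fold without cell 13 and 5.47-fold without cell 6. Without cells 6 and 19 the difference was 3.80 and the summed level 5.43-fold higher. The Alcam call was lost without cell 13, 4, 7, 18, 3, 10, 1, 12, 19 or 9, and its Spearman correlation with Mrc1 was 0.17.

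Genes of the labelled cell type were read in most of the 14 cells, in some of them at low levels. Ptprc was read in all of them, at 2.29 to 1107 CPM in Mrc1-high cells and 2.83 to 1479 in Mrc1-low cells. Adgre1 was read in 7 of 8 and 5 of 6 cells, with none in Mrc1-low cell 19 and none in Mrc1-high cell 7, the cell with the least Ptprc. Adgre1 was also low in Mrc1-high cells 20 and 10, at 6.24 and 17.7 CPM, and in Mrc1-low cell 9, at 4.00 CPM. In the other cells with a read it was 344 to 1699 CPM in Mrc1-high cells and up to 752 CPM in Mrc1-low cells. Neither Ptprc nor Adgre1 was called, at differences of 0.70 and 1.10. Of the 11 sort and identity genes 1 was called higher (Fcgr1) and 0 lower, with a median of 0.85. That median was −0.38 without cells 6 and 19, Fcgr1 was not called (1.31), Cd68 was called higher (3.06) and Cd14 lower (−2.79). Few genes of other cell types were analysed. The 7 osteoblast and fibroblast genes summed to 6.15 to 25.5 CPM in Mrc1-high cells and 3.88 to 10.0 in Mrc1-low cells and 0 of 6 tested was called. Neutrophil genes had 3 of 16 analysed and S100a8 called lower, and their summed level was 0 to 3622 CPM against 1.81 to 3507. Dendritic cell genes had 3 of 16 analysed and 0 called, with 0 to 326 CPM against 0 to 9832, the highest from cell 6. The lymphoid list had 1 of 16 members analysed, which was not called, and the erythroid, endothelial and mast cell lists had 0. The part of these cell types in the differences was not tested.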

How the data were processed

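One table of 3613 genes in 44 single cells was used, with 0 columns left out; 25 genes are at 0 in all cells. The deposited values are a signal: gene reads × 1000000000 over library reads and over a whole number fixed for each gene, a form inferred from the values. The mm10 build and Seurat are named per the submitters' processing notes. Which aligner, counter and annotation were used is not given in the sources used here. Whole reads were recovered for all 99807 deposited values above 0 (100% within a tolerance of 0.0001). CPM is recovered reads × 1000000 over library reads, and neither of these is a deposited unit. Recovery and comparison were tested on simulated data.

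The treatment field of the labels gave each cell its group; titles of cells without megakaryocytes also name megakaryocytes. SDs are between cells, and a tested gene had a read in 5 of 14 cells. Folds of summed levels have exact 95% intervals that treat the reads summed over a set as independent counts. They leave out the spread between cells. They also leave out repeated reads of 1 molecule, since no molecular identifiers mark the reads. No p-value was computed, because the cells are 1 sample. Of 91 named genes, 29 share exon bases with another gene in GENCODE M21.

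Named genes were Mrc1, Emb, Alcam, Ptprc and Adgre1; the 15 highest and 15 lowest differences among called genes, passing over predicted genes; genes without overlap; the 3 largest absolute differences in each list; and the 5 most like Mrc1. Other list members, and genes that describe a cell (Cd74, Itgam, Lyz2), were named after their values were seen. The members, lists and rules were chosen with earlier results of these data known. Alternatives were thinning to 310000 reads, leaving out cells under 100000 reads, a pseudocount of 10, no filter, other totals, deposited values, medians and leaving out cells. Leaving out cells 6 and 19 together was chosen after seeing the data. Python 3.11.15, numpy 2.4.6, pandas 2.3.3, scipy 1.17.1 and matplotlib 3.10.9 were used.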

Additional observations from a re-analysis of the deposited data

Results flagged for a closer look

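Of 192 sets of values looked at, 30 held a cell far from the others of its set, by Dixon's gap criterion. The chance rate of that criterion, about 1 in 20 groups, assumes normally distributed values. Many sets here include cells without a read, and many of the genes were named for large differences. The count of 30 therefore cannot be compared with that rate, and no excess over chance is claimed. The flags of Clcn7 in cell 19 and Trf in cell 6 each rest on 1 read. All levels here are log2(CPM + 1).

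Most of the outlying values in Mrc1-low cells came from 3 cells. Cell 6 had 84.8% of its reads in the genes analysed, H2-Aa at 14.26, H2-Ab1 at 13.06, Trf and Ndufb10 at 1.27 each, and Vav1 and Plek at 0. Cell 19 was high in Rtp4 at 10 and Tnfrsf11a at 9.99, was the only Mrc1-low cell with a read of Clcn7, at 0.93, and was low in Mff at 0, Cs at 4.72 and Col1a2 at 0. Cell 2 stood above the other Mrc1-low cells in Nisch at 5.79, Cd300a at 8.3 and Stab1 at 7.87, and below them in Brd2 at 2.05. Cell 1 lay apart in Tmem106a at 1.71, Cdkn1b at 4.27 and Cdk2 at 3.34, and cell 9 in Nrp1 at 6.29.

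Among Mrc1-high cells, cell 18 had Cd300a at 0, Brd9 at 5.65 and Gadd45b at 3.15. Cell 13 had the lowest C1qb at 6.25 and the highest Ctsl at 14.07. Single values stood apart in cell 5 for Rpusd4 at 1.8, cell 4 for Rae1 at 4.61, cell 20 for Cdk2 at 8.47 and cell 3 for Il7r at 9.63. The part of library depth, sorting or culture in these single cells was not tested.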

How the results depend on the processing

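With a pseudocount of 10 CPM, 91 genes were called higher and 66 lower in place of 270 and 208, and with the deposited values 442 were called higher and 299 lower. Without cells 6 and 19, 9 genes had every Mrc1-high cell above every Mrc1-low cell and 9 the reverse, in place of 5 and 0. With each cell left out in turn these counts were 5 to 9 and 0 to 3, and the called counts were 248 to 345 higher and 184 to 251 lower. Under the other settings (thinning, no filter, totals of the genes analysed, median-ratio factors, medians over cells, and omission of the top cell of each set) 260 to 374 genes were called higher and 199 to 246 lower, and under the first 4 of these the counts without overlap were 4 or 5 and 0. Omission of the top cell of each set moved the median of all genes from 0.08 to 0.27. Leaving out the shallow cells changed nothing, because both lie between the sets. Of the named genes that were called, H2-Aa alone changed the sign of its difference when a cell was left out (0.10 without cell 6). Differences of 15 of 91 named genes moved by more than the spread between cells with the deposited values, 5 with a pseudocount of 10 and 3 with medians. The deposited values kept a pseudocount of 1 although their scale differs by gene. For Mrc1 in cell 13 the deposited value was 74065, against 4666 CPM. The cause of these shifts was not tested. No paired analysis was possible because the comparison is within a single plate, comes from no test, and the numbers only name cells.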
